A study of Mus musculus with 12 samples.

Results

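The genes described here were 9 mouse genes of neutrophils and other granulocytes, namely the receptors Fpr1, Fpr2, Cxcr2 and Csf3r, the transcription factor Cebpe, the granule and cytosolic proteins Ltf, S100a8 and S100a9, and the NADPH oxidase subunit Ncf1. They were chosen by their known role in granulocytes and selected on measured values, since each had an m6A peak in at least 1 of the 2 peak lists of the study, so that neither the role nor the presence of a peak is a finding. A peak was counted for a gene when the list assigned it to that gene or when it was called on that gene. By this rule 13 of the 27292 peaks of the OVA group and 13 of the 26102 peaks of the PBS group belonged to these genes, which are 9 of 17415 genes with a peak of either kind in either list.

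Methylated RNA was measured in whole lung of female BALB/c mice aged 6 to 8 weeks. Mice of the OVA group, a model of acute allergic asthma, received 0.2 ml of intraperitoneal ovalbumin (OVA, 20 μg/ml) with aluminium hydroxide (2 mg/ml) on days 0 and 7 and breathed aerosolized 3% OVA for 30 min daily on days 14 to 20, whereas mice of the PBS group received phosphate-buffered saline alone at the same times. Lungs were taken on day 21 after a methacholine provocation test, which both groups underwent. Each group had 3 libraries of RNA immunoprecipitated with an m6A antibody (IP) and 3 libraries of the same RNA without immunoprecipitation (input), and a single peak list stood for all libraries of a group.

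N6-methyladenosine is a methyl mark on adenosines inside RNA that is written by a methyltransferase complex, removed by demethylases and read by proteins that affect splicing, stability and translation of the transcript. Neutrophils follow gradients of chemokines and formylated peptides into inflamed lung, release granule proteins and produce superoxide through NADPH oxidase. In the airways of allergic mice eosinophils are usually the prominent granulocytes, and neutrophils enter as well.

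The peak lists gave each peak a fold enrichment, the ratio of IP over input signal, and a log10 p value from the peak caller. The fold enrichment is not an RNA level, and the lists carried no value of a single mouse, so that no spread between replicates could be given and no difference between the groups was tested. Read depth is not known from the lists. From the lists alone, a gene missing from a list could not be told apart from a gene with too few reads for a call. Fewer cells of a type could not be told apart from less RNA per cell in these whole-lung samples.

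Counting peaks called on the gene itself, 5 of the 9 genes (Fpr1, Cxcr2, Csf3r, Ltf and Ncf1) had peaks in both lists. Cebpe had peaks of its own in the OVA list alone, whereas Fpr2, S100a8 and S100a9 had them in the PBS list alone. Over all 14988 genes with a called peak in either list, 10.8% had one in the OVA list only and 7.22% in the PBS list only. Because the genes were chosen by their peaks, nothing was read from the comparison with these shares. When peaks assigned to a gene were also counted, the OVA list held a peak for 6 genes and the PBS list for 9.

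Among the 13 OVA peaks, 4 had no overlapping PBS peak, with overlap taken as at least 1 bp shared by exonic blocks, against 19.4% of all OVA peaks. Of the 13 PBS peaks, 3 had no overlapping OVA peak, against 14.5% of all PBS peaks. The OVA peaks without a partner were both peaks called on Cebpe, 1 peak assigned to Cebpe but called on its neighbour Slc7a8, and the upstream peak of Ncf1. The PBS peaks without a partner were the peaks called on Fpr2, S100a8 and S100a9.

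The overlapping peaks formed 10 pairs, in which each peak was the largest overlap of the other. The fold enrichment was higher in OVA in 5 pairs and higher in PBS in 5, whereas 61.4% of all pairs were higher in OVA. It was at least 2 times higher in PBS in 2 pairs, on Fpr1 and Fpr3, against 4.92% of all 20531 pairs, and at least 2 times higher in OVA in 0 pairs, against 7.78% of all pairs. By the called gene alone the Fpr1 pair was the 1 pair left, and 0 were left when the overlap had to cover 50% of both peaks. The median log2 ratio of OVA over PBS was 0.11 in the 10 pairs and 0.13 in all pairs, and the 10 pairs spread widely around their median.

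**Figure D1:**
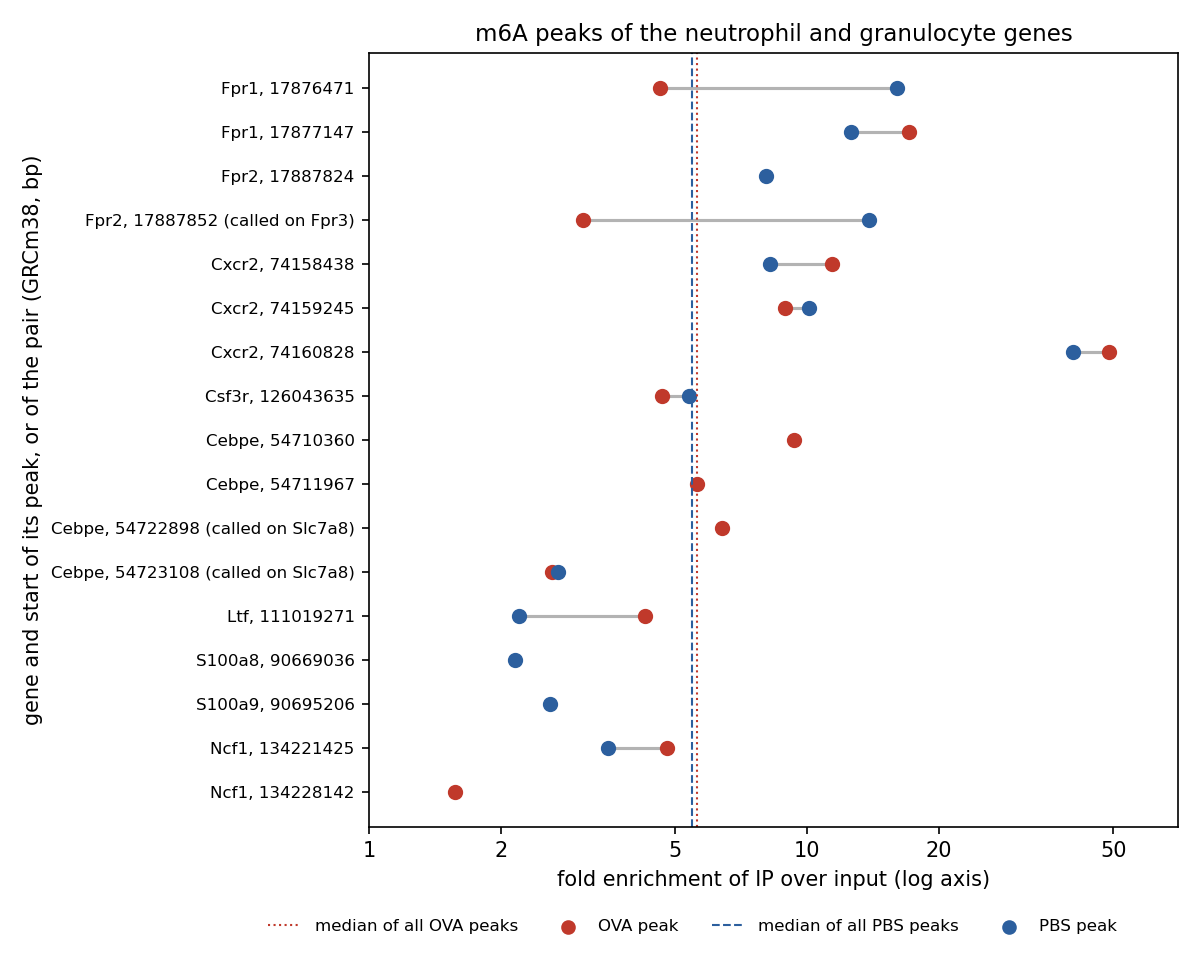
Fold enrichment of IP over input (log axis) of each peak of the 9 genes, with OVA peaks in red and PBS peaks in blue, a grey line joining the peaks of an overlapping pair, and the median of all peaks of each list as a dotted (OVA, 5.59) or dashed (PBS, 5.44) line. The widest gaps are those of the pair called on Fpr3 (3.08 in OVA and 13.8 in PBS) and the pair at the end of Fpr1 (4.62 in OVA and 16.0 in PBS).

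Fpr1 (ENSMUSG00000045551) encodes a G protein-coupled receptor for formylated peptides released by bacteria and by damaged mitochondria. It lies on the minus strand of chromosome 17 (build GRCm38) and each list had 2 peaks toward its 3' end, annotated to exon 2 of 2 or to the 3' UTR. The PBS peak at 17876471 to 17876912 covered 442 bp and reached the last base of the transcript, with a fold enrichment of 16.0 and a log10 p of -161. The OVA peak that overlapped it, at 17876677 to 17876883, covered 207 bp and ended 206 bp short of the transcript end, with a fold enrichment of 4.62 and a log10 p of -5.64. The shorter OVA peak thus lay wholly inside the PBS peak, and the fold enrichment was 3.46 times higher in PBS. Only 1.3% of all pairs had a log2 ratio as low as that of this pair (-1.79).

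The upstream pair of Fpr1 peaks did not share this difference. Its OVA peak at 17877206 to 17877676 had a fold enrichment of 17.1 and its PBS peak at 17877147 to 17877706 had 12.6. The log10 p was nevertheless -27.6 in OVA and -355 in PBS, so that the list with the higher ratio had the weaker call. In all, peaks called on Fpr1 covered 678 exonic bp in OVA and 1002 bp in PBS, and all 678 bp were shared.

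Fpr2 (ENSMUSG00000052270), a neighbour of Fpr1 on the plus strand, encodes a related receptor that binds peptide and lipid ligands. No OVA peak was called on it or assigned to it. The PBS list held a peak of 2 blocks, 17887824 to 17887899 and 17892733 to 17893040, with a fold enrichment of 8.06 and a log10 p of -36.0. Its first block began at the first base of the gene and its last block ended 912 bp before the gene end.

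A further PBS peak was assigned to Fpr2 but called on Fpr3, another receptor gene of the same family. It joined a block of 48 bp inside the first block of the Fpr2 peak (17887852 to 17887899) to a block of 189 bp (17970458 to 17970646) that started at the first base of Fpr3 in RefSeq, so that its span of 82795 bp passed over 6 RefSeq genes. Its fold enrichment was 13.8, with a log10 p of -19.6. The OVA list had a peak called on Fpr3 inside the distal block, at 17970469 to 17970557, with a fold enrichment of 3.08 and a log10 p of -2.75. The ratio was 4.48 times higher in PBS, and 0.7% of all pairs lay as low. This OVA peak was assigned to Fpr3 and is not among the 13 peaks of the OVA list. Fpr1 and Fpr3 thus had a higher ratio in the PBS list at 1 position each, and the upstream pair of Fpr1 did not. Fpr2 had a lone peak in the PBS list, but it was chosen by having a peak. The Fpr2 and Fpr3 peaks of the PBS list also share the block of 48 bp, so they are not separate observations. Of the same family, Fpr-rs3, Fpr-rs4, Fpr-rs6 and Fpr-rs7 had no called peak in either list. No pattern of the family was read from these values. These genes are related in sequence, so that reads may match several of them, and the part of such reads in these peaks was not tested.

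Cxcr2 (ENSMUSG00000026180) encodes the receptor through which neutrophils sense CXC chemokines such as Cxcl1 and Cxcl2, and lies on the plus strand of chromosome 1. It had 3 peaks in each list, and 3 or more called peaks were found in 23.9% of genes of the OVA list and 23.1% of genes of the PBS list. The most upstream peak was annotated to exon 2 of 3 and the other two to the 3' UTR, and each overlapped its counterpart in the other list. Its peaks thus occupied the same places in both groups.

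The exonic Cxcr2 peak spanned 74158498 to 74158976 in OVA and 74158438 to 74158976 in PBS, with fold enrichments of 11.4 and 8.21. The middle peak spanned 74159245 to 74159633 in OVA and 74159245 to 74159693 in PBS, with fold enrichments of 8.87 and 10.1. The distal peak spanned 74160888 to 74161216 in OVA and 74160828 to 74161216 in PBS, with fold enrichments of 48.8 and 40.5. In each of the 3 pairs the PBS peak was 60 bp longer, and no pair differed by as much as 2 times.

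The distal Cxcr2 peak, which ended 30 bp before the transcript end, had the highest fold enrichment of all peaks of the 9 genes in either list. It stood at the 99.3rd percentile of OVA peaks and at the 99.2nd percentile of PBS peaks. Its p values were moderate, with a log10 p of -15.6 in OVA and -13.3 in PBS. The middle Cxcr2 peak had a lower ratio but a log10 p of -305 in OVA and -193 in PBS, so the order of the Cxcr2 peaks by ratio was not their order by p.

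Csf3r (ENSMUSG00000028859) encodes the receptor for granulocyte colony-stimulating factor, which drives neutrophil production and survival. A single peak was called on it in each list, at 126043665 to 126043993 of chromosome 4 in OVA and at 126043635 to 126043993 in PBS, 982 bp before the gene end. Both lists assigned this peak to Mrps15, a gene for a mitochondrial ribosomal protein whose transcript start was nearer, at a distance of -2932 bp where negative values lie upstream. A search by assigned name alone would thus have missed Csf3r. The fold enrichment was 4.65 in OVA and 5.36 in PBS, at the 43.7th and 49.3rd percentiles of their lists, and the log10 p was -159 and -93.8.

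Cebpe (ENSMUSG00000052435) encodes a transcription factor needed for the last stages of granulocyte maturation and for the genes of specific granules. On the minus strand of chromosome 14, the OVA list had a peak annotated to the 3' UTR at 54710360 to 54710655. It also had a peak annotated to the 5' UTR at 54711967 to 54712174. The former reached the last base of the transcript and had a fold enrichment of 9.33 with a log10 p of -34.4. The latter reached the first base and had a fold enrichment of 5.59 with a log10 p of -9.21. Peaks thus stood at either end of this short gene in the OVA group, and the PBS list had none called on Cebpe.

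The PBS list still assigned a peak to Cebpe, at 54723318 to 54723438, but this peak was called on Slc7a8, a neighbouring gene for a neutral amino acid transporter, with its distance to the Cebpe start given as -11264 bp. It had a fold enrichment of 2.70 and overlapped an OVA peak called on Slc7a8 at 54723108 to 54723557, with a fold enrichment of 2.61. A further OVA peak at 54722898 to 54723018, also called on Slc7a8 and assigned to Cebpe, had a fold enrichment of 6.37. All 3 of these peaks lay inside Slc7a8 in RefSeq and outside Cebpe.

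Such a mismatch between the called and the assigned gene was found in 3 of the 13 peaks in each list, called in OVA on Csf3r and, for the other two, on Slc7a8, and in PBS on Csf3r, Slc7a8 and Fpr3. The same was true of 22.5% of all OVA peaks and 22.8% of all PBS peaks. The granulocyte genes were near these shares, but the mismatch decided whether Csf3r was counted at all and whether Cebpe was counted in the PBS list.

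Ltf (ENSMUSG00000032496) encodes lactoferrin, an iron-binding protein of specific granules, and lies on chromosome 9. Each list had a peak of 3 blocks that began at 111019271, the first base of the transcript, with further blocks from 111019454 and 111020847. Each list annotated the peak as a whole to the 5' UTR, and how much of it is coding was not examined. The peak ended at 111020892 in OVA and at 111020862 in PBS, so that 181 and 151 exonic bp were covered. The fold enrichment was 4.25 in OVA and 2.20 in PBS, a ratio of 1.93, and the log10 p was -31.6 and -5.04. Among the pairs of these genes this was the highest ratio of OVA over PBS, at the 91.5th percentile of all pairs, and it fell just short of 2 times.

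S100a8 (ENSMUSG00000056054) and S100a9 (ENSMUSG00000056071) encode the subunits of calprotectin, a calcium- and zinc-binding protein abundant in the neutrophil cytosol. Both genes lie on chromosome 3, on opposite strands, and each had a single peak, in the PBS list. The S100a8 peak, assigned to a retained-intron transcript, had blocks at 90669036 to 90669102 and 90669311 to 90669417, with a fold enrichment of 2.15 and a log10 p of -13.4. The S100a9 peak had blocks at 90695206 to 90695297 and 90695668 to 90695721, with a fold enrichment of 2.59 and a log10 p of -12.7. The calprotectin genes thus resembled each other in the form of their peaks, which had 2 blocks each, the outer block at the 5' end of the RefSeq gene, and in their low ratios, at the 13.3rd and 20.9th percentiles of PBS peaks.

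Ncf1 (ENSMUSG00000015950) encodes the cytosolic subunit that organizes NADPH oxidase at the membrane. Its peak on chromosome 5 at 134221425 to 134221782 in OVA and 134221454 to 134221782 in PBS had fold enrichments of 4.78 and 3.50. Both lists annotated it to a 3' UTR and assigned it to a transcript classed as retained intron. The log10 p of this pair was -213 in OVA and -33.7 in PBS. The OVA list alone had a further peak at 134228142 to 134228261, annotated to exon 2 of 12 and also assigned to a retained-intron transcript. The fold enrichment of this further peak, 1.57, stood at the 3.2nd percentile of its list, and its log10 p was -3.12. This was the weakest peak of the 9 genes by either measure.

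**Figure D2:**
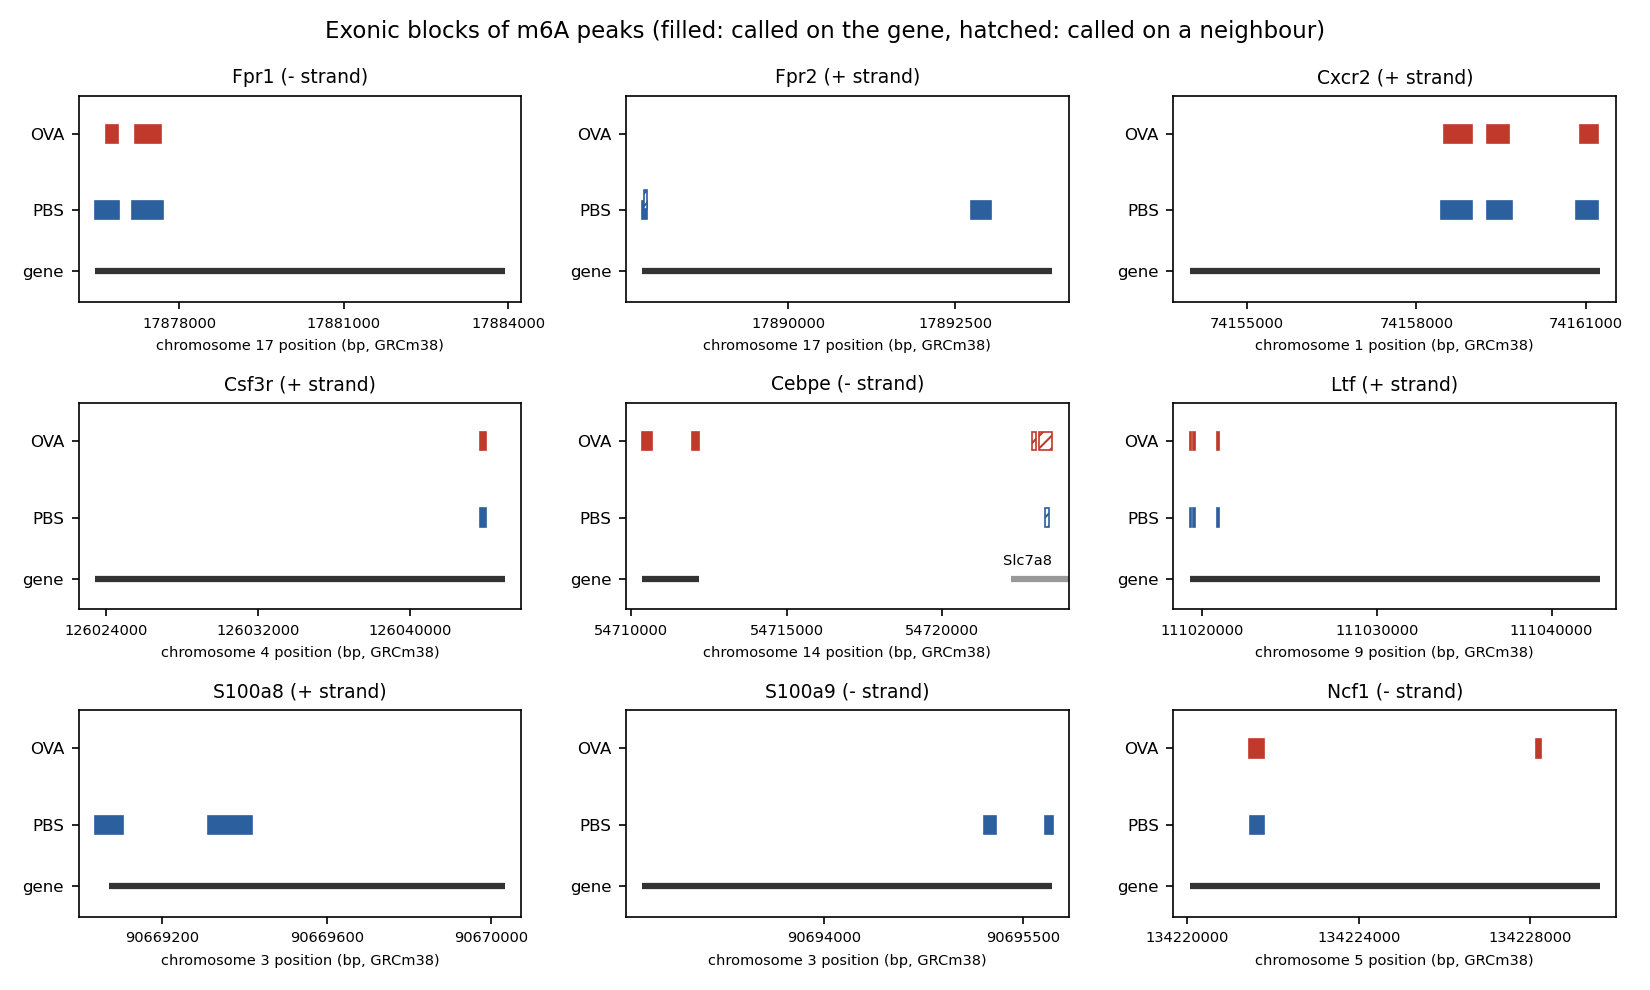
Exonic blocks of the m6A peaks of each gene along its chromosome (bp, GRCm38), with OVA blocks in red, PBS blocks in blue, blocks of peaks called on a neighbouring gene hatched, and the RefSeq gene as a dark bar. The block of the Fpr2 peak that lies in Fpr3 is outside its panel. Cebpe has filled blocks in the OVA row alone, and Fpr2, S100a8 and S100a9 in the PBS row alone.

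Across the 9 genes, the order by the highest fold enrichment of a peak called on the gene began with Cxcr2 and Fpr1 in both lists. In OVA it went on with Cebpe (9.33), Ncf1 (4.78), Csf3r (4.65) and Ltf (4.25). In PBS it went on with Fpr2 (8.06), Csf3r (5.36), Ncf1 (3.50), S100a9 (2.59), Ltf (2.20) and S100a8 (2.15). Among these 9 genes, Cxcr2 and Fpr1 thus stood above Ltf, S100a8, S100a9 and Ncf1 where these had a peak, but the granule protein gene Hp had 22.1 in OVA and 16.8 in PBS and the receptor gene Cxcr1 had 2.44 in PBS. Without replicate values it could not be said which neighbours in this order differ beyond their spread. The 13 OVA peaks had a median fold enrichment of 5.59, as did all OVA peaks (5.59), and the 13 PBS peaks had a median of 8.06 beside 5.44 for all PBS peaks.

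The width of the peaks also varied. In 7 of the 10 pairs the PBS peak covered more exonic bp, as it did in 32.4% of all pairs, and the exceptions were the pairs on Ltf, Ncf1 and Slc7a8. The p value was lower in OVA in 7 of the 10 pairs, against 59.4% of all pairs, and the pairs with the lower p in PBS were both Fpr1 pairs and the Fpr3 pair. Since 7 of 10 is near the share of all pairs and read depth is not known, nothing was read from this split about the formyl peptide receptors.

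By region, 7 of the 13 peaks in each list were annotated to a 3' UTR, as were 52.7% of all peaks in each list. Peaks annotated to a 5' UTR numbered 2 in OVA (Cebpe and Ltf) and 4 in PBS (Fpr2, S100a8, S100a9 and Ltf), against 11.6% and 11.4% of all peaks. Ltf was thus the sole gene of the 9 with a peak annotated to a 5' UTR in both lists. The annotation gives 1 region for a whole peak, also where a peak has several blocks. Among the annotation terms carried by the lists, chemotaxis was attached to 5 of the 8 genes with an assigned annotation (Fpr1, Fpr2, Cxcr2, S100a8 and S100a9) and to 0.678% of 11215 annotated genes. Inflammatory response was attached to 5 (Fpr1, Fpr2, S100a8, S100a9 and Ncf1) and to 1.92% of annotated genes, and since the genes were chosen by their role nothing was read from these shares.

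Since peaks on S100a8, S100a9, Ltf and Fpr2 lay at the transcript start, the RefSeq sequence around the start (GRCm38.p6) was searched there for the m6A consensus, on the transcribed strand alone because the mark is on RNA. The motif, known as RRACH, was any of 12 pentamers that have A or G at each of the leading positions, then A, then C, and last A, C or T. A start sequence was matched for 8 of the 9 genes, all but Cebpe. In the 4 of these with a peak there, the part of the peak inside the start sequence was searched, which was 67 bases for S100a8, 71 for Ltf and 50 each for Fpr2 and S100a9. That part held a motif in S100a8, Ltf and Fpr2 and not in S100a9, and the rest of each peak was not searched. For all 32817 start sequences, the first 50 transcribed bases held a motif in 44.6%, a share for a shorter stretch than was searched in S100a8 and Ltf. The matches are shown with the pentamer in capitals, 5′ to 3′ on the plus strand, because they show where the motif lay in the searched parts of these peaks. A match is a description of letters and not a mapped methylated base.
S100a8, chr3:90669084-90669108: tccgtcttcaAGACAtcgtgtaagt
Ltf, chr9:111019305-111019329: aggtctcccaAGACCacagacatga
Ltf, chr9:111019312-111019336: ccaagaccacAGACAtgaggctgct
Fpr2, chr17:17887854-17887873: tacaccacagGAACCgaaga

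The 9 genes were then set among 91 granulocyte genes grouped by role. Of these, 41 had a called peak in both lists, 8 in OVA only, 7 in PBS only and 35 in neither. Of the 56 with a peak, 14.3% were in OVA only and 12.5% in PBS only, beside the 10.8% and 7.22% of all genes. These shares include the 9 genes, which were chosen by having a peak, and without them 7 genes were in OVA only and 4 in PBS only, or 14.9% and 8.51% of 47. Of the 61 pairs of all 91 genes, 4 were at least 2 times higher in OVA and 5 in PBS, beside 7.78% and 4.92% of all pairs.

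Among 17 formyl peptide and chemoattractant receptors, which include Fpr1, Fpr2 and Cxcr2, 11 had peaks in both lists, 2 in PBS only (Fpr2 and Cxcr1) and 4 in neither. The peak on Cxcr1, the sister receptor of Cxcr2, had a fold enrichment of 2.44. Pairs at least 2 times higher in OVA were found on the leukotriene receptor gene Ltb4r1 (30.5 in OVA and 7.93 in PBS) and on Ptafr, the receptor for platelet-activating factor (35.1 and 11.8). The Ptafr pair set 1730 exonic bp in OVA against 687 bp in PBS. The receptors thus held pairs in either direction, with Fpr1 and Fpr3 on the PBS side. The 6 neutrophil chemokine genes, among them the Cxcr2 ligand genes Cxcl1 and Cxcl2, had no called peak in either list.

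Among 10 growth factor and cytokine genes around Csf3r, 4 had peaks in both lists, and Csf3, the ligand gene of Csf3r, had none. Csf2ra, a receptor subunit for granulocyte-macrophage colony-stimulating factor, had peaks in OVA only (highest fold enrichment 3.73), and Csf2, its ligand gene, in PBS only (3.70). The pair on the receptor subunit gene Csf2rb2 had 26.0 in OVA and 8.06 in PBS. Csf3r itself was thus among the genes present in both lists with near ratios.

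Of 8 granulocyte transcription factor genes, 7 had called peaks in both lists and Cebpe in OVA only. That is 12.5% in OVA only, near the 10.8% of all genes with a called peak. Its relatives Cebpa, Cebpb and Cebpd had highest fold enrichments of 42.0, 43.0 and 9.52 in OVA and 36.8, 30.4 and 16.1 in PBS. The pair on Gfi1, a repressor needed for neutrophil development, had 18.5 in OVA (log10 p -90.2) and 41.5 in PBS (-13.4). Cebpe was called in a single list, unlike Cebpa, Cebpb and Cebpd, but it was chosen by having a peak, so that nothing was read from this contrast.

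None of the 5 primary granule genes, Mpo and Elane among them, had a called peak in either list. Of 9 genes of specific and gelatinase granules, 3 (Ltf, Lcn2 and Hp) had peaks in both lists, Mmp9, a gelatinase gene, had a peak in OVA only (3.71), and Ngp, a granule protein gene, in PBS only (12.3, with a log10 p of -3.38). Among NADPH oxidase genes, Ncf1 shared with Cybb and Ncf4 the presence of more peaks in the OVA list than in the PBS list, unlike Cybc1 with 1 and 2.

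Of 15 neutrophil surface and effector genes, 8 had peaks in both lists and 3 in OVA only, namely the integrin gene Itgb2 (4.05), the protease gene Mmp25 (4.11) and the lectin receptor gene Clec4e (7.38). Trem1, a receptor that amplifies inflammation, had a pair with 4.86 in OVA and 9.87 in PBS and a pair with 7.70 in OVA and 4.56 in PBS. Of 12 eosinophil genes, 3 had peaks in both lists and 6, Siglecf and Epx among them, in neither. The eotaxin receptor gene Ccr3 had 13.0 in OVA (1875 bp, log10 p -254) and 6.17 in PBS (61 bp, -2.70). The interleukin-5 receptor gene Il5ra had 21.8 in OVA (984 bp, -194) and 52.3 in PBS (448 bp, -16.9), so that its higher ratio came with the weaker call. The ribonuclease genes Ear6 (5.65) and Rnase2a (1.43) were in OVA only and Ear1 (7.65) in PBS only.

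Of 29 marker genes of lung and blood cell types, 15 had called peaks in both lists, 3 in OVA only, 2 in PBS only and 9 in neither. The 4 neutrophil markers are all among the 9 genes chosen by having a peak, so that their presence, which includes both genes in PBS only (S100a8 and S100a9), is no independent check of the label. Of the epithelial markers of lung, Scgb1a1 and Foxj1 had peaks in both lists and Sftpc and Epcam in neither. Of the mast cell markers, Kit and Mcpt4 had peaks in OVA only and Cpa3 in neither list. These lists show whether a gene had a peak and not how much of its RNA was present, and the part of cell numbers in the peaks of the 9 genes was not tested.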

How the data were processed

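MeRIP-seq compared lung RNA of the OVA group and the PBS group, with 3 IP and 3 input libraries each. The authors used FASTP for read cleaning, HISAT2 for alignment to the Ensembl mouse genome, exomePeak for peak calling and ChIPseeker for annotation. The deposited lists give each peak a fold enrichment of IP over input (a ratio) and, as scores without fixed range, the log10 of its p value and of its FDR, as made by the authors. How the libraries of a group were combined is not given in the sources used here. Depth per library is not known from the lists.

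Block sizes showed that list starts count from 0: 649 of 27292 OVA peaks started 1 base below their transcript's lowest base and 20 at it, so 1 was added to each start. The build was read from the data, as 97.2% of the peaks in each list whose called gene has a RefSeq entry overlapped that gene in GRCm38.p6.

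Exonic blocks sharing at least 1 bp were taken as overlapping, and a pair was formed where each peak was the other's largest overlap. Overlap code was tested on simulated data. Python 3.11.15, numpy 2.4.6, pandas 2.3.3 and matplotlib 3.10.9 were used. No test was made, since each group had 1 list. Alternatives were an FDR under 0.05, a fold enrichment of at least 2, the assigned or the called gene alone, other overlap rules, and ratios of 1.5 and 3 in place of 2. Genes named beside the 9 were those of the gene lists with a peak in 1 list only or a pair differing at least 2 times, at most 3 per direction and list, and genes sharing a peak with a member. Other genes, such as Cebpa, Cebpb and Cebpd, were named after their values were seen. All 91 list genes and 29 marker genes matched a gene ID, and the values of 1 list gene are not reported here. The members and lists were chosen with earlier results of these data known.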

Additional observations from a re-analysis of the deposited data

How the results depend on the processing

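Of 50 alternative values for 9 counts, 43 were within 1.5 times of the reported value and 7 were not. With identical start and end required, all 13 OVA and all 13 PBS peaks had no partner, and 0 pairs were at least 2 times higher in PBS. With 50% of both peaks required, 6 PBS peaks had no partner, and 0 pairs were at least 2 times higher in PBS, since the Fpr1 and Fpr3 pairs overlap by less. By the called gene alone, 1 pair was at least 2 times higher in PBS, that of Fpr1. At 1.5 times, 1 pair was higher in OVA, that of Ltf. An FDR under 0.05 changed none of the 9 counts. Without the 9 genes, a setting chosen after seeing the data, 4 list genes in place of 7 had a called peak in PBS only and 7 in place of 8 in OVA only. No paired analysis was possible because each group was given as 1 list without values of single libraries, and for the same reason no replicate could be left out.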
